A study of Rattus norvegicus with 20 samples.

Results

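The 9 mature microRNAs (miRNAs) described here are products of the miR-17-92 cluster (rno-miR-17-5p, rno-miR-18a-5p, rno-miR-19a-3p, rno-miR-19b-3p, rno-miR-20a-5p and rno-miR-92a-3p) and of its paralog, the miR-106b-25 cluster (rno-miR-106b-5p, rno-miR-93-5p and rno-miR-25-3p). Names are given without the rat prefix from here on. The members were taken by name from the 719 rat miRNAs on an Agilent array. The arrays measured kidneys of male Wistar rats of 80 to 100 g body weight, whose age is not given in the sources used here. Rats of the treated groups received aristolochic acid I (AAI, a plant acid that injures kidney tubules and forms DNA adducts) at 40 mg per kg intraperitoneally, and kidneys were collected on day 2, day 4 or day 6. Rats of the vehicle group received PEG400 mixed with water on the same schedule, and the vehicle arrays hold day 6 kidneys only, so AAI days 2 and 4 were compared with vehicle kidneys of another day. Each group had 5 kidneys, each read on 1 array, so p-values measure the spread between kidneys together with that between arrays.

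The miR-17-92 cluster is cut from 1 primary transcript and is known as an oncogenic, growth-promoting cluster that Myc and E2F factors activate; it is also needed by the progenitor cells that build the kidney. A miRNA recognises target mRNAs mainly through its seed, bases 2 to 8 from the 5′ end, so miRNAs that share a seed share many targets. As background, the miR-17 seed is known to repress the cell cycle inhibitor Cdkn1a, the miR-92 seed the death-promoting Bcl2l11, and miR-18a members of the TGF-beta pathway. These targets were not measured here.

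The mature sequences, from RefSeq for assembly GRCr8, show why the 9 members fall into 4 seed groups. They run 5′ to 3′, and the capitals mark the seed.
miR-17-5p: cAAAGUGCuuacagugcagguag
miR-20a-5p: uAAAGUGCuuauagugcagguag
miR-93-5p: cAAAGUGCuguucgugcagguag
miR-106b-5p: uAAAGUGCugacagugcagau
miR-18a-5p: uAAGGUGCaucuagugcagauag
miR-19a-3p: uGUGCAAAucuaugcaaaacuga
miR-19b-3p: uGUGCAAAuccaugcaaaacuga
miR-92a-3p: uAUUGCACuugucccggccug
miR-25-3p: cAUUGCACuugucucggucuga

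The miR-17 seed is held by 4 members, 2 from each cluster, and by miR-20b-5p. miR-18a-5p is alone with its seed among the 693 mature rat miRNAs in the reference. The miR-19 seed belongs to miR-19a-3p and miR-19b-3p only, both from miR-17-92. The miR-92 seed is held by 5 mature rat miRNAs, of which miR-92a-3p of miR-17-92 and miR-25-3p of miR-106b-25 are members. Over their first 23 bases miR-17-5p and miR-20a-5p differ at 2 positions, and miR-19a-3p and miR-19b-3p at 1. In GRCr8 the mature sequences of the 6 miR-17-92 hairpins span chr15:98587861-98588622 on the plus strand, 762 bases. Those of the 3 miR-106b-25 hairpins span chr12:22156652-22157123 on the minus strand, within the gene Mcm7, which encodes a subunit of the replication helicase. Another paralog, miR-106a-363, has its mature sequences at chrX:137342788-137343637 and makes the same mature miR-17-5p, miR-19b-3p and miR-92a-3p, so the array cannot tell the source of these 3.

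Each member was read by 2 probes of 10 spots each. All 18 member probes matched 1 mature rat miRNA perfectly, but the closest neighbours differed by a single base within the probed stretch. The probes that separate these neighbours follow, with capitals at the base opposite the mismatch.
miR-17-5p probe: ctacctgcactGtaag
miR-20a-5p probe: ctacctgcactAtaagca
miR-19a-3p probe: tcagttttgcatAgatttgc
miR-19b-3p probe: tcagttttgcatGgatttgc

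Cross-hybridisation within miR-17-5p and miR-20a-5p, and within miR-19a-3p and miR-19b-3p, was not tested. The probes of miR-106b-5p and miR-92a-3p stood 2 mismatches from their nearest neighbour, those of miR-93-5p and miR-18a-5p 3, and those of miR-25-3p 5. At day 6 both probes gave the same sign of change for 8 of 9 members. The exception was miR-93-5p, whose change was near 0.

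All 9 members were detected on 20 of 20 arrays and all were tested, among 262 tested miRNAs. The number of detected miRNAs per array was 250 to 328, and the 75th percentile signal 309 to 592 intensity units. Levels are log2 of the signal over that percentile of the array, so 1 unit is a doubling. All 8 kidney epithelial miRNAs listed (such as miR-192-5p and miR-204-5p) were detected on every array. Of 10 miRNAs listed as markers of other tissues, 3 were detected on all 20 arrays, 5 on some and 2 (muscle miR-1-3p and pancreatic miR-216a-5p) on none. The arrays came from 3 slides. The AAI day 6 arrays were all on slide 1 and the AAI day 2 arrays all on slide 2. AAI day 4 was split, with arrays 3, 4 and 5 on slide 1 and arrays 1 and 2 on slide 2, and vehicle array 5 was on slide 2 while the other 4 were on slide 3. AAI day 4 array 2 was the lowest of its group for all 9 members. Vehicle and AAI day 6 never met on a slide, so slide and group can be separated for that comparison only through the arrays of day 4 on slides 1 and 2 and the vehicle array on slide 2.

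**Figure D1:**
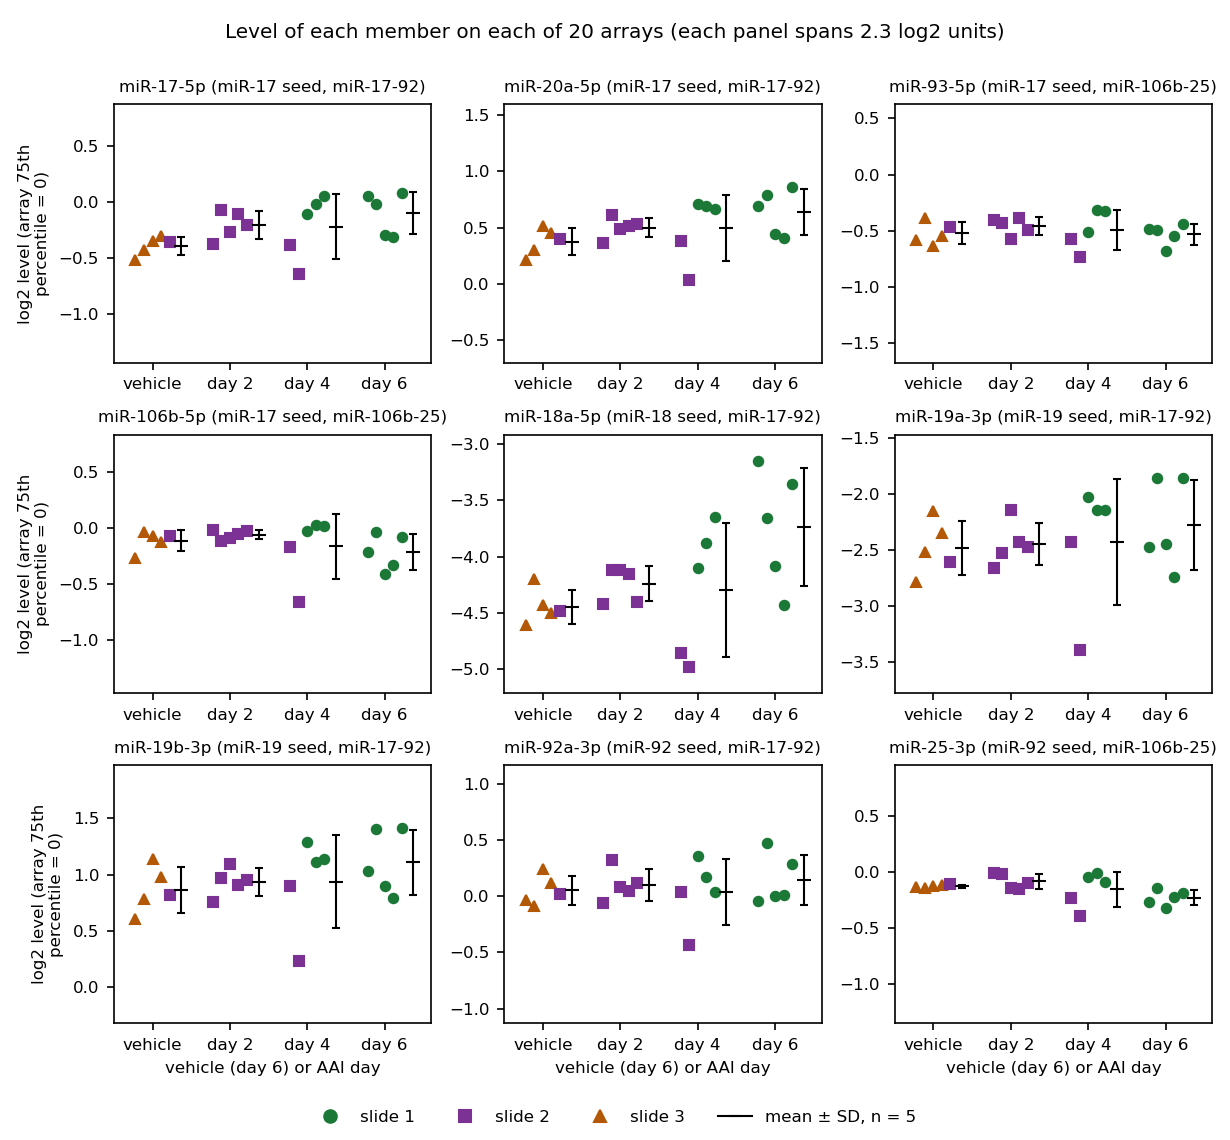
Log2 level of each of the 9 members (y axis, log2 units, array 75th percentile = 0) on each of 20 arrays, by group (x axis), with colour and shape for the slide; black bars are mean ± SD (n = 5), and each panel spans the same range of log2 units. The day 6 points of miR-18a-5p reach -3.15 against at most -4.20 in vehicle, and the purple squares of AAI day 4 (slide 2) lie below the green circles of the same day (slide 1) in all 9 panels, though in that of miR-92a-3p the gap is small (0.036 against 0.042).

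AAI day 6 against vehicle was the comparison at a matched collection day. Of the family, miR-18a-5p rose 1.64-fold (95% interval 1.14 to 2.35), and the other 8 members did not pass the test. The 6 miR-17-92 members all had positive log2 changes, from 0.09 to 0.71 with a median of 0.25. The 3 miR-106b-25 members had values from -0.10 to -0.01. In limma 1 of 9 members passed an adjusted p of 0.05 (26.0% of all tested miRNAs did, 7.25% as higher), and 3 of 9 had an unadjusted p under 0.05. The median over the 9 was 0.20, against -0.11 over all 262 tested miRNAs, of which 93 (35.5%) were positive.

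In the miR-18 seed group, miR-18a-5p had levels of -4.61, -4.20, -4.43, -4.50 and -4.48 on the 5 vehicle arrays. On the AAI day 6 arrays they were -3.15, -3.65, -4.08, -4.43 and -3.36. AAI arrays 1, 2 and 5 were high, array 3 lay slightly above vehicle and array 4 within it, so the groups overlapped. The change was 0.71 ± 0.25 (log2 ± SE, limma adjusted p = 0.0407). The raw signal behind it was low, 12.7 to 60.5 intensity units over the 20 arrays, and its probes gave 0.94 and 0.60.

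The call for miR-18a-5p was lost on leaving out any 1 of AAI day 6 arrays 1, 2 and 5 or of vehicle arrays 1, 3, 4 and 5 (limma adjusted p 0.0600 to 0.105). With slide as a fixed block its change was -0.30 ± 0.43 (adjusted p = 0.604), as a random block 0.32 ± 0.33 (0.467), and with the replicate number as a block 0.71 ± 0.27 (0.0693). With normexp background correction, which adds an offset of 50 to each spot, it was 0.05 ± 0.14 (0.852). The call was also lost with scaling to the median (limma adjusted p = 0.114) or to the percentile over all miRNAs (0.0994), and on testing all miRNAs detected on at least 1 array (0.0535). With quantile normalization (0.221) and in the deposited series table (0.512) it was lost too, and there miR-20a-5p passed instead, at 0.31 ± 0.10 (limma adjusted p = 0.0360) and 0.32 ± 0.10 (0.0300). With the scanner software's own total gene signal miR-18a-5p was -1.85 ± 0.75 (0.170). The ratio of that signal to the sum of the probes was 0.657 to 31.9 for miR-18a-5p over the arrays, and 0.657 to 0.674 for the other 8 members.

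**Figure D2:**
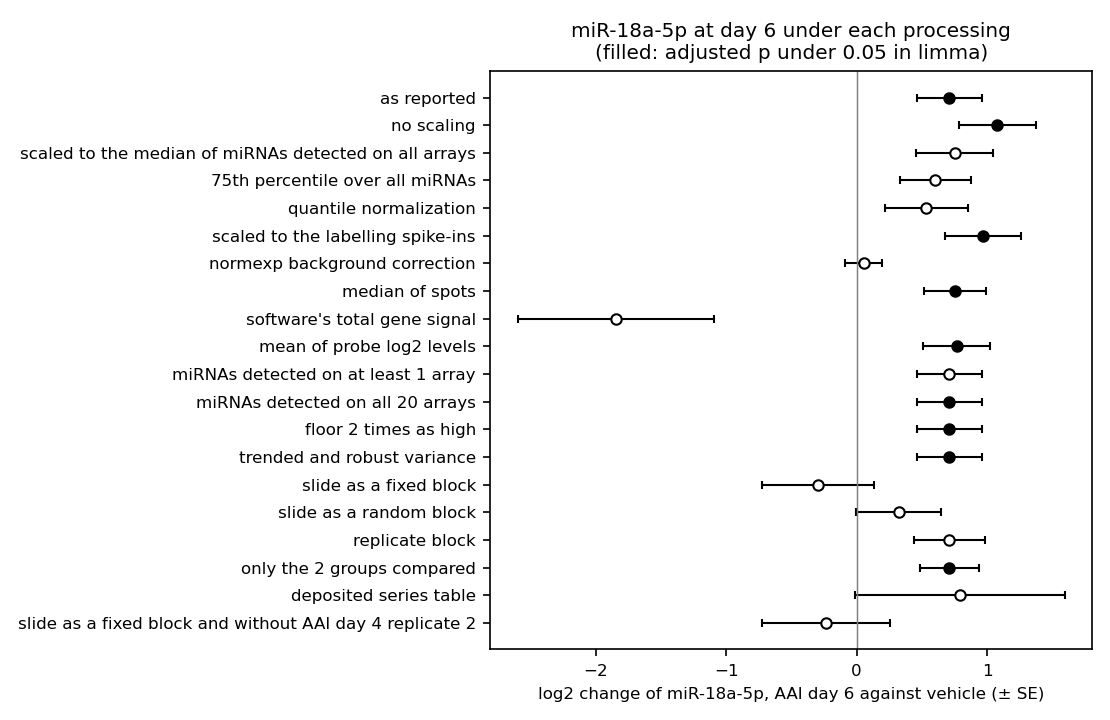
Log2 change of miR-18a-5p at AAI day 6 against vehicle (x axis, log2 units ± SE) under each processing or model setting (rows), filled where the limma adjusted p was under 0.05. The value is 0.71 as reported, -0.30 with slide as a fixed block and -1.85 with the software's total gene signal.

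In the miR-17 seed group, the largest of the family, the values split by cluster. miR-17-5p had levels of -0.52, -0.43, -0.35, -0.30 and -0.36 in vehicle. At AAI day 6 they were 0.05, -0.02, -0.30, -0.31 and 0.08, with arrays 1, 2 and 5 above all vehicle arrays and arrays 3 and 4 close to the highest vehicle array. Its change was 0.29 ± 0.12 (limma adjusted p = 0.0762, unadjusted 0.0244).

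miR-20a-5p, its neighbour in the same transcript, had levels of 0.21, 0.30, 0.51, 0.46 and 0.40 in vehicle and 0.69, 0.79, 0.45, 0.41 and 0.86 at day 6. The same AAI arrays, 1, 2 and 5, were above all vehicle arrays. AAI day 6 array 2 had the lowest 75th percentile signal (309) and the fewest detected miRNAs (250) of the 20 arrays. Before scaling, its signal for miR-20a-5p was 535 intensity units, within the vehicle range of 361 to 645. That for miR-17-5p was 305, also within the vehicle range (218 to 354). The change was 0.26 ± 0.12 (limma adjusted p = 0.112, unadjusted 0.0450).

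The miR-106b-25 members of that seed had other values. miR-93-5p had levels of -0.58, -0.39, -0.63, -0.54 and -0.47 in vehicle and -0.49, -0.49, -0.68, -0.55 and -0.44 at day 6. The groups overlapped almost fully, and the 95% interval of the change (-0.18 to 0.16 log2 units) leaves room for a change of that size either way. miR-106b-5p had levels from -0.27 to -0.04 in vehicle and from -0.41 to -0.04 at day 6, a change of -0.10 ± 0.11 (limma adjusted p = 0.514).

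The split within the miR-17 seed can be read without any scaling, because a difference within an array does not depend on it. The mean log2 level of miR-17-5p and miR-20a-5p minus that of miR-93-5p and miR-106b-5p was 0.27, 0.15, 0.43, 0.41 and 0.29 on the vehicle arrays. On the AAI day 6 arrays it was 0.72, 0.65, 0.62, 0.49 and 0.73. All 5 AAI day 6 arrays lay above all 5 vehicle arrays. Only the change of this difference between groups is informative, since its level mixes different probes.

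The mean of that difference over 5 arrays was 0.31 ± 0.12 (SD) for vehicle kidneys, 0.41 ± 0.12 and 0.47 ± 0.08 for AAI days 2 and 4, and 0.64 ± 0.10 for AAI day 6. Days 2 and 4 overlapped vehicle. The AAI day 4 arrays on slide 1 (0.57, 0.48 and 0.51) lay above all 5 vehicle arrays, as did the AAI day 6 arrays, also on slide 1. Those of day 4 on slide 2 (0.37 and 0.39) lay within the vehicle range. The part of slide in the day 6 values was not tested. The day 6 change was 0.33 log2 units. It was 0.21 with slide as a fixed block. Of the 29 alternatives 11, such as the other scalings, leave a difference within an array as it is, and over the other 18 (10 of them with 1 array left out) it ranged from 0.20 to 0.37. Within slide 1 the mean was 0.64 at day 6 (5 arrays) and 0.52 at day 4 (3 arrays), with overlap. Within slide 2 it was 0.41 at day 2 (5 arrays), 0.38 at day 4 (2 arrays) and 0.29 on the 1 vehicle array. The difference was chosen after the values were seen, so no test was made.

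**Figure D3:**
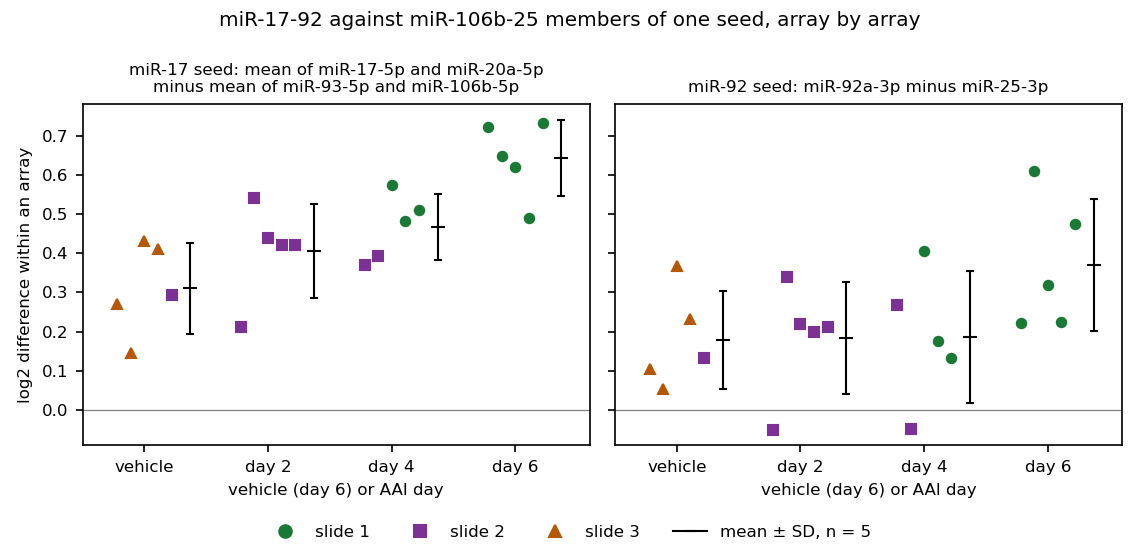
Log2 difference within an array (y axis) between miR-17-92 and miR-106b-25 members of the miR-17 seed (left) and the miR-92 seed (right), by group (x axis), with colour and shape for the slide; black bars are mean ± SD (n = 5). In the left panel the AAI day 6 arrays (0.49 to 0.73) lie above the vehicle arrays (0.15 to 0.43). So do the slide 1 arrays of AAI day 4 (0.48 to 0.57), and in the right panel the groups overlap.

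In the miR-19 seed group, known as the main oncogenic part of miR-17-92 in lymphoma, miR-19b-3p had levels of 0.61, 0.78, 1.14, 0.97 and 0.82 in vehicle. At day 6 they were 1.03, 1.40, 0.90, 0.79 and 1.41, with arrays 2 and 5 above all vehicle arrays and arrays 1, 3 and 4 within their range. Before scaling, the miR-19b-3p signal of array 2 was 817 intensity units, within the vehicle range of 475 to 994. The change was 0.24 ± 0.17 (limma adjusted p = 0.288). miR-19a-3p had levels from -2.78 to -2.15 in vehicle and from -2.74 to -1.86 at day 6, a change of 0.20 ± 0.23 (adjusted p = 0.512). The difference of miR-19b-3p and miR-19a-3p within an array stayed between 3.24 and 3.63 on all 20 arrays, with group means of 3.34 to 3.38.

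In the miR-92 seed group, miR-92a-3p had levels from -0.09 to 0.24 in vehicle and from -0.04 to 0.47 at day 6. Its change was 0.09 ± 0.13 (limma adjusted p = 0.628). miR-25-3p of miR-106b-25 had levels of -0.13, -0.14, -0.13, -0.11 and -0.11 in vehicle and -0.27, -0.14, -0.32, -0.22 and -0.19 at day 6. All 5 AAI day 6 arrays lay below all 5 vehicle arrays, the highest by a margin that rounding hides (-0.142 against a lowest vehicle level of -0.139). Groups that did not overlap, in either direction, were found for 1 of 9 members and for 23.3% of all tested miRNAs. Its change was -0.10 ± 0.07 (limma adjusted p = 0.276). Its SD was 0.013 over the vehicle arrays and 0.069 over the AAI day 6 arrays.

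The difference of miR-92a-3p and miR-25-3p within an array was 0.10, 0.05, 0.37, 0.23 and 0.13 in vehicle and 0.22, 0.61, 0.32, 0.22 and 0.47 at day 6. The groups overlapped. The change was 0.19, and it ranged from 0.11 to 0.27 over the 18 alternatives that can move it.

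**Figure D4:**
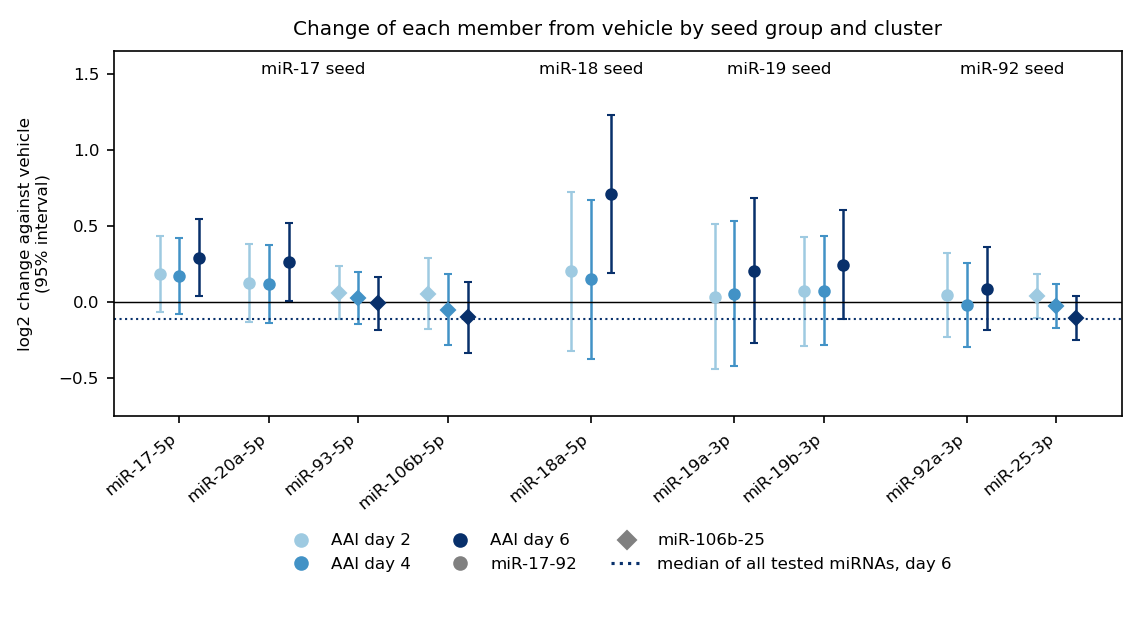
Log2 change of each member from vehicle (y axis, log2 units, with 95% interval from limma) at AAI day 2, 4 and 6 (light to dark), by seed group (x axis) and with circles for miR-17-92 and diamonds for miR-106b-25; the dotted line is the day 6 median of all tested miRNAs, -0.11. At day 6 the circles lie above 0 and the diamonds at or below it, and the interval of miR-18a-5p reaches 1.23.

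The direction of the small changes depended on how slides and scaling were treated. With slide as a fixed block all 9 members were negative at day 6, from -0.56 (miR-106b-5p) to -0.23 (miR-17-5p), against a median of -0.32 over all tested miRNAs. There miR-25-3p (-0.38 ± 0.12, limma adjusted p = 0.0290) and miR-106b-5p (-0.56 ± 0.20, 0.0428) passed, 2 of 9 members where 60 of 262 tested miRNAs were called lower. Without AAI day 4 array 2 this block gave 0 of 9 in limma (1 at an unadjusted p under 0.05) and 0 of 262. Without scaling between arrays all 9 were positive, with a median of 0.57 against 0.26 over all tested miRNAs. There miR-18a-5p (1.08 ± 0.29, adjusted p = 0.0186), miR-17-5p (0.66 ± 0.19, 0.0242) and miR-20a-5p (0.63 ± 0.19, 0.0289) passed. Calls over all tested miRNAs were 19 higher and 49 lower as reported, 33 and 1 without scaling, 21 and 1 with labelling spike-ins, and 16 and 11 with scaling to the median.

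Markers of other cell types were read in the same comparison, where 18.7% of all tested miRNAs were called lower. Of the kidney epithelial list 4 of 8 tested miRNAs fell (median -0.27). Of the leukocyte list 2 of 6 fell (miR-342-3p and miR-146a-5p), and its summed level relative to the percentile was 4.02 to 4.23 in vehicle and 2.69 to 3.53 at day 6. The red-cell miRNA miR-451-5p fell, and of the stromal list 1 of 5 fell (miR-214-3p). The endothelial miR-126a-3p was -0.21 ± 0.07 (limma adjusted p = 0.0502) and miR-126a-5p -0.13 ± 0.10 (0.328). Without scaling or with labelling spike-ins, only miR-451-5p of these falls passed (limma adjusted p = 2.4e-05 and 2.1e-05), and the median of the epithelial list was 0.095 and -0.018. With the fixed slide block and without AAI day 4 array 2 none of them passed (miR-451-5p -2.83 ± 0.88, adjusted p = 0.0655). The part of these lists in the members' values was not tested. In bulk kidney, fewer cells of a type and less RNA per cell cannot be told apart.

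At AAI day 4 against the day 6 vehicle kidneys, no member passed: 0 of 9 passed in limma (3.44% of all tested miRNAs did) and 0 had an unadjusted p under 0.05. Values ran from -0.05 (miR-106b-5p) to 0.17 (miR-17-5p), with 6 of 9 positive (35.9% of all tested miRNAs were) and a median of 0.05 against -0.07 over all tested miRNAs. For miR-18a-5p the levels were -4.86, -4.98, -4.10, -3.88 and -3.64. Arrays 1 and 2, on slide 2, lay below all vehicle arrays, and arrays 3, 4 and 5, on slide 1, above all of them. Its change was 0.15 ± 0.25 (limma adjusted p = 0.750).

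This division of the day 4 arrays held for the whole family. All 9 members had a higher mean on the 3 slide 1 arrays than on the 2 slide 2 arrays. The gap was 1.05 log2 units for miR-18a-5p, 0.81 for miR-19a-3p, 0.61 for miR-19b-3p, 0.49 for miR-17-5p and 0.48 for miR-20a-5p. It was 0.42 for miR-106b-5p, 0.39 for miR-92a-3p, 0.27 for miR-93-5p and 0.26 for miR-25-3p, against a median of 0.20 over all tested miRNAs, of which 179 of 262 (68.3%) had a gap of the same sign. Without AAI day 4 array 2, which leaves 1 array on slide 2, the gap was still positive for all 9 members and for 160 of 262 tested miRNAs (61.1%). It was then 0.99 for miR-18a-5p, 0.33 for miR-19a-3p, 0.28 for miR-19b-3p, 0.35 for miR-17-5p and 0.31 for miR-20a-5p. For miR-106b-5p, miR-92a-3p, miR-93-5p and miR-25-3p it was 0.18, 0.15, 0.19 and 0.18, and the median over all tested miRNAs was 0.077. Within slide 2, where the lone vehicle array was assumed to have the spread of the AAI arrays, miR-18a-5p was -0.44 ± 0.21 (limma adjusted p = 0.289).

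At AAI day 2 against the same vehicle kidneys, 0 of 9 members passed in limma (1.53% of all tested miRNAs did), with 0 at an unadjusted p under 0.05. All 9 values were positive, where 99 of 262 tested miRNAs (37.8%) were. They ran from 0.03 (miR-19a-3p) to 0.20 (miR-18a-5p), with a median of 0.06 against -0.04 over all tested miRNAs. miR-18a-5p had levels of -4.42, -4.12, -4.12, -4.15 and -4.40, above the vehicle mean of -4.45 on each array but overlapping it. Its change was 0.20 ± 0.25 (limma adjusted p = 0.798). Within slide 2, against the 1 vehicle array there, it was 0.24 ± 0.18 (0.996).

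Between AAI days no member passed without a term for slide. In limma 0 of 9 passed at day 6 against day 4 (0.763% of all tested miRNAs did, and 1 member had an unadjusted p under 0.05). At day 6 against day 2 it was 0 of 9 (11.1% of all, 0 members at an unadjusted p under 0.05), and at day 4 against day 2 also 0 of 9 (0% of all, 0 members). All day 6 arrays were on slide 1 and all day 2 arrays on slide 2, so a fixed slide block compares them only through day 4. With slide as a fixed block 3 of 9 members passed as lower at day 6 than at day 2, where 67 of 262 tested miRNAs did. They were miR-25-3p (-0.40 ± 0.10, limma adjusted p = 0.0086), miR-106b-5p (-0.58 ± 0.16, 0.0162) and miR-93-5p (-0.34 ± 0.12, 0.0416). With the random block miR-25-3p alone of the members passed (-0.28 ± 0.09, limma adjusted p = 0.0478), where 26 of 262 were called lower. At day 4 against day 2, miR-25-3p passed with the fixed block (-0.23 ± 0.07, limma adjusted p = 0.0488), where 23 of 262 were called lower. Without AAI day 4 array 2 the fixed block called 0 of 9 members and 0 of 262 tested miRNAs in both comparisons. The member with a low unadjusted p was miR-18a-5p, 0.56 ± 0.25 from day 4 to day 6 (limma adjusted p = 0.398). Within slide 1, where 5 day 6 and 3 day 4 arrays lie side by side, it was 0.14 ± 0.29 (0.822). There 8 of 9 members were negative, with a median of -0.075 against -0.094 over all tested miRNAs. By group mean miR-18a-5p stood highest at day 6 (-3.73 ± 0.53, SD, n = 5), then day 2 (-4.24 ± 0.16), day 4 (-4.30 ± 0.60) and vehicle (-4.45 ± 0.15). Days 2, 4 and vehicle do not differ beyond their spread. A test over all 4 groups at once (limma F) called 0 of 9 members (17.9% of all tested miRNAs), with 0 at an unadjusted p under 0.05, and the unadjusted p of miR-18a-5p there was 0.0528.

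Members varied together from kidney to kidney within their groups. Over the 36 pairs of members, the correlation of deviations from the group mean had a median of 0.75 (0.34 to 0.98), where all pairs of tested miRNAs had 0.13. Pairs of the same cluster had a median of 0.82 and pairs of different clusters 0.71. Pairs with the same seed had 0.80. The highest was miR-19a-3p with miR-19b-3p (0.98), then miR-20a-5p with miR-19b-3p (0.95) and with miR-17-5p (0.94). The lowest was miR-93-5p with miR-92a-3p (0.34). The points are 20 arrays that share their scaling and slides. Without AAI day 4 array 2 the median over the 36 pairs was 0.59 (-0.04 to 0.97), where all pairs of tested miRNAs had 0.083. Pairs of the same cluster then had 0.70, pairs of different clusters 0.51 and pairs with the same seed 0.66.

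Few relatives of the 9 members were measurable. Of 22 listed, 18 were on the array, 7 were detected on at least 1 array and 4 were tested. Of the opposite hairpin arms, 9 of 12 were detected on no array. The tested ones, miR-17-1-3p and miR-20a-3p, changed by 0.59 ± 0.43 and -0.22 ± 0.20 at day 6 without passing (limma adjusted p = 0.302 and 0.418).

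The X-linked miR-106a-363 cluster gave a value for each of its measurable seeds. miR-20b-5p, with the miR-17 seed, was 0.26 ± 0.11 at day 6 (limma adjusted p = 0.0978). miR-363-3p, with the miR-92 seed, was -0.33 ± 0.12 (adjusted p = 0.0513). In limma 0 of the 4 tested relatives passed at day 6 (26.0% of all tested miRNAs did), and 2 had an unadjusted p under 0.05. The probes of miR-20b-5p differ from miR-20a-5p by 1 base. Of the miRNAs with the miR-92 seed elsewhere, miR-92b-3p was detected on 2 arrays and miR-32-5p on 12, and neither was tested.

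The tested miRNAs most like each seed group were found by Pearson correlation of levels over the 20 arrays, given as a description. For the miR-17 seed they were miR-20b-5p (r = 0.92, Spearman rho 0.88), miR-340-5p (0.91, 0.89) and miR-1949 (0.85, 0.89). For miR-18a-5p they were miR-34c-5p (0.91, 0.88), miR-34b-5p (0.91, 0.86) and miR-322-5p (0.90, 0.85). For the miR-19 seed they were miR-219-5p (0.92, 0.87), miR-141-3p (0.91, 0.80) and miR-20b-5p (0.88, 0.82). For the miR-92 seed they were miR-30a-5p (0.90, 0.87), miR-200a-3p (0.89, 0.88) and miR-10a-5p (0.88, 0.88). Without AAI day 4 array 2 the r of these 12 pairs was 0.79 to 0.91.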

How the data were processed

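Per the labels' protocols, total RNA of each kidney was labelled with Cy3 and hybridised to 1 array. Agilent Feature Extraction 10.7.1.1 quantified the spots, per the file headers. The deposited spot values are background-subtracted fluorescence intensity in arbitrary units, not scaled between arrays. The deposited detection and outlier flags (other values, 0 or 1) were used as given. The authors' deposited series table holds log2 values whose scaling and centring stay unknown. It served as an alternative.

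From these files, the signal of a miRNA was summed over its probes (mean of unflagged spots) and divided by the 75th percentile over the 231 miRNAs detected on all 20 arrays. A floor of 0.00640 was set and log2 taken. miRNAs detected on all 5 arrays of a group (262) were tested in 1 limma 3.58.1 fit of 4 group means under R 4.3.3. Benjamini-Hochberg adjustment ran over all 262 per comparison, with a threshold of 0.05, two-sided. The fit was tested on simulated data with independent noise and no slide effect, so that test cannot show how slides act on it. Precision is limited by the number of arrays. The rule named the 9 members only. The 22 relatives came from a list, and the 3 miRNAs most like each seed group were picked by correlation in these data. The members and lists were chosen with earlier results of these data known. Slides were taken from the deposited array identifiers. The replicate numbers did not pair the samples: correlations of same-numbered deviations ran from -0.62 to 0.66. Alternatives covered scaling, background, probe summary, filter, variance model, slide, replicate block, the deposited table and each array left out. Sequences and GRCr8 positions come from RefSeq, and all 9 members matched by name.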

Additional observations from a re-analysis of the deposited data

Results flagged for a closer look

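On AAI day 4 array 2 the level of miR-106b-5p was -0.67, while the other 4 arrays of its group lay between -0.17 and 0.02. The gap made up 0.715 of the group's range, past Dixon's 95% critical value for 5 samples. It was 1 of 36 sets of 5 values tested, and chance flags about 1 in 20. The array was the lowest of its group for all 9 members. Without it the day 4 change of miR-106b-5p was 0.07 instead of -0.05.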

How the results depend on the processing

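Members past the threshold at AAI day 6 against vehicle (1 of 9 as reported) numbered 3 without scaling and 2 with the software's total gene signal, slide as a fixed block or only the 2 groups compared. Over all 262 tested miRNAs the calls in these settings were 34, 23, 90 and 72, in that order. With total gene signal miR-17-5p (0.51 ± 0.14, limma adjusted p = 0.0282) and miR-20a-5p (0.48 ± 0.13, 0.0291) were higher. With only the 2 groups compared miR-18a-5p (0.71 ± 0.22, 0.0408) and miR-17-5p (0.29 ± 0.10, 0.0446) were higher. The members called with the fixed block, miR-25-3p and miR-106b-5p, were lower. The count stayed 1 with quantile normalization and the deposited table, where the member was miR-20a-5p in place of miR-18a-5p. They numbered 0 with scaling to the median or to the 75th percentile over all miRNAs, normexp, miRNAs detected on at least 1 array, slide as a random block, the replicate block, and the fixed slide block without AAI day 4 array 2. Leaving out 1 array gave 0 to 1. The replicate numbers did not pair the samples (4 of 20 arrays correlated best with their own number), and the replicate block changed the call of miR-18a-5p alone. Members called at day 6 against day 2 numbered 3 with the fixed slide block (95 of all 262 tested miRNAs) and 1 with the random block (29 of 262). At day 4 against day 2 the fixed block called 1 member (34 of 262). In all other alternatives both member counts were 0, as were those at day 4 and day 2 against vehicle and at day 6 against day 4. The median day 6 change of the miR-17 seed group (0.13) was 0.50 without scaling, 0.019 with the percentile over all miRNAs, 0.38 with spike-ins, 0.34 with total gene signal, 0.19 with the deposited table, -0.29 with the fixed and -0.028 with the random slide block, and -0.17 with the fixed block without AAI day 4 array 2. That of the miR-19 seed group (0.22) was 0.59 without scaling, 0.12 with the percentile over all miRNAs, 0.48 with spike-ins, 0.44 with total gene signal, 0.12 with normexp, -0.40 and -0.025 with the fixed and random slide blocks, and 0.0037 with the fixed block without that array. That of the miR-92 seed group (-0.0065) was 0.36 without scaling, -0.11 with the percentile over all miRNAs, 0.25 with spike-ins, 0.21 with total gene signal, 0.035, 0.037 and 0.058 with scaling to the median, quantile normalization and the deposited table, -0.32 and -0.13 with the fixed and random blocks, and -0.17 without that array. The day 6 change of the miR-17 seed difference within arrays (0.33) was 0.21 with the fixed block and 0.20 without that array. Single members changed sign as follows; the cause was not tested. With the fixed slide block, miR-17-5p, miR-20a-5p, miR-18a-5p, miR-19a-3p, miR-19b-3p and miR-92a-3p were -0.23, -0.25, -0.30, -0.48, -0.33 and -0.27 at day 6. At day 4, with that block and within slide 2 alike, miR-17-5p, miR-20a-5p, miR-93-5p, miR-18a-5p, miR-19a-3p and miR-19b-3p were -0.16, -0.20, -0.19, -0.44, -0.31 and -0.25. With the fixed block without AAI day 4 array 2, a setting chosen after seeing the data, miR-17-5p, miR-20a-5p, miR-18a-5p and miR-92a-3p were -0.099, -0.074, -0.24 and -0.035 at day 6. At day 4 miR-17-5p, miR-20a-5p, miR-93-5p, miR-18a-5p and miR-92a-3p were -0.025, -0.024, -0.10, -0.38 and 0.012 there. With the random slide block, miR-19a-3p and miR-92a-3p were -0.071 and -0.052 at day 6, and miR-93-5p, miR-18a-5p, miR-19a-3p and miR-19b-3p -0.037, -0.023, -0.051 and -0.022 at day 4. Without scaling, miR-93-5p, miR-106b-5p and miR-25-3p were 0.36, 0.27 and 0.27 at day 6, and miR-106b-5p, miR-92a-3p and miR-25-3p 0.31, 0.34 and 0.33 at day 4. With spike-ins the same members were 0.25, 0.16 and 0.15, and 0.13, 0.16 and 0.15. With total gene signal, miR-93-5p, miR-106b-5p, miR-25-3p and miR-18a-5p were 0.21, 0.12, 0.11 and -1.85 at day 6, miR-106b-5p, miR-92a-3p, miR-25-3p and miR-18a-5p 0.042, 0.072, 0.064 and -0.77 at day 4, and miR-18a-5p -1.42 at day 2 and -1.08 from day 4 to day 6. With quantile normalization, miR-93-5p was 0.040 at day 6, miR-18a-5p, miR-19a-3p, miR-92a-3p and miR-25-3p -0.029, -0.016, 0.014 and 0.024 at day 4, and miR-19a-3p -0.037 at day 2. With the deposited table, miR-93-5p and miR-25-3p were 0.067 and 0.0022 at day 6, miR-18a-5p, miR-19a-3p, miR-92a-3p and miR-25-3p -0.62, -0.031, 0.030 and 0.036 at day 4, and miR-19a-3p -0.037 at day 2. Normexp adds an offset of 50 to each spot before the probes are summed. Without it the probes of miR-18a-5p read 3.6 to 37.6 units. With normexp, miR-18a-5p and miR-19a-3p were -0.042 and -0.022 at day 4 and -0.13 and -0.092 at day 2. miR-93-5p at day 6 was 0.032 with scaling to the median and 0.0016 with the mean of probe levels, and miR-92a-3p -0.018 with the percentile over all miRNAs. With 1 array left out, the values that crossed 0 ran from -0.037 to 0.029 for miR-93-5p at day 6. At day 4 they ran from -0.016 to 0.090 for miR-93-5p, -0.097 to 0.074 for miR-106b-5p, -0.012 to 0.32 for miR-18a-5p, -0.046 to 0.29 for miR-19a-3p, -0.015 to 0.25 for miR-19b-3p, -0.10 to 0.098 for miR-92a-3p and -0.064 to 0.030 for miR-25-3p. At day 2 they ran from -0.041 to 0.12 for miR-19a-3p and -0.0087 to 0.094 for miR-92a-3p. Changes of this size are within the spread between arrays.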
